A study of Rattus norvegicus with 5 samples.

Results

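The genes described here encode heterotrimeric G protein subunits and RGS proteins (regulators of G protein signalling). They were chosen by symbol from a combined gene table: the G alpha genes (Gna followed by letters or digits), Gnb1 to Gnb5, the G gamma genes (Gng followed by digits, Gngt1 and Gngt2) and the Rgs genes numbered after Rgs. The rule found 55 of 33014 genes, of which 16 were G alpha, 5 G beta, 13 G gamma and 21 RGS genes. The rule itself used no expression value, but earlier results of these data were known when the genes were chosen.

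A G protein couples receptors on the cell surface to enzymes and channels inside. The alpha subunit exchanges GDP for GTP at an active receptor and parts from the beta-gamma dimer, and each part then acts on its own targets. RGS proteins speed the hydrolysis of GTP by alpha subunits and so shorten the signal. In sensory neurons, opioid and other inhibitory receptors act through the Gi/o class of alpha subunits and through beta-gamma dimers on calcium and potassium channels.

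The data were 5 RNA-seq libraries, all of 1 group, from dissociated dorsal root ganglia of wild-type Sprague Dawley rats of postnatal day 10. Dorsal root ganglia hold the cell bodies of sensory neurons and their glia. The cells were plated at 5000 per well, were given PBS, a buffer without drug, after 1 day and were lysed after 8 days, with 3 wells pooled for each library. The protocol names 1 litter of 10 pups, and no label shows separate preparations, so the p-values below cover the variation among these 5 libraries alone, and that variation can be technical. The series concerns a screening platform for chronic pain that reads neuronal activity optically, and these libraries record which genes its cultures expressed.

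Libraries held 21596608 to 27913098 estimated reads. Markers of neurons (10 of 10), Schwann cells (10 of 10), satellite glia (6 of 6), fibroblasts (6 of 6) and macrophages (10 of 10) were detected, as were 6 of 8 mural and 3 of 6 endothelial markers, and no lymphocyte marker of 7 was. Detected means a TPM of at least 1 in every library. TPM is the usual RNA-seq level per unit of transcript length, scaled to the same total in each library. The libraries pool the RNA of all these cells, so no value says which cell type expressed a gene, and fewer cells of a type and less RNA per cell cannot be told apart. Values are mean TPM ± SD over the 5 libraries, and lists of 5 values follow the order of replicates 1 to 5.

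Most of these genes were expressed. Of the 55 genes, 42 (76.4%) were detected, beside 41.3% of all genes in the table. By class these were 13 of 16 G alpha, 5 of 5 G beta, 10 of 13 G gamma and 14 of 21 RGS genes. A mean TPM of at least 10 was reached by 34 of the 55 genes (61.8%) and by 28.5% of all genes, and a mean of at least 100 by 9 (16.4%) and 5.2%. The G alpha genes summed to 2344 ± 34.8 TPM, the G beta genes to 1032 ± 23.8, the G gamma genes to 807 ± 7.50 and the RGS genes to 340.2 ± 15.6 (SD, n = 5). The class sums differ in the number of genes they hold, and the RGS sum was the lowest although that class has the most genes.

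**Figure D1:**
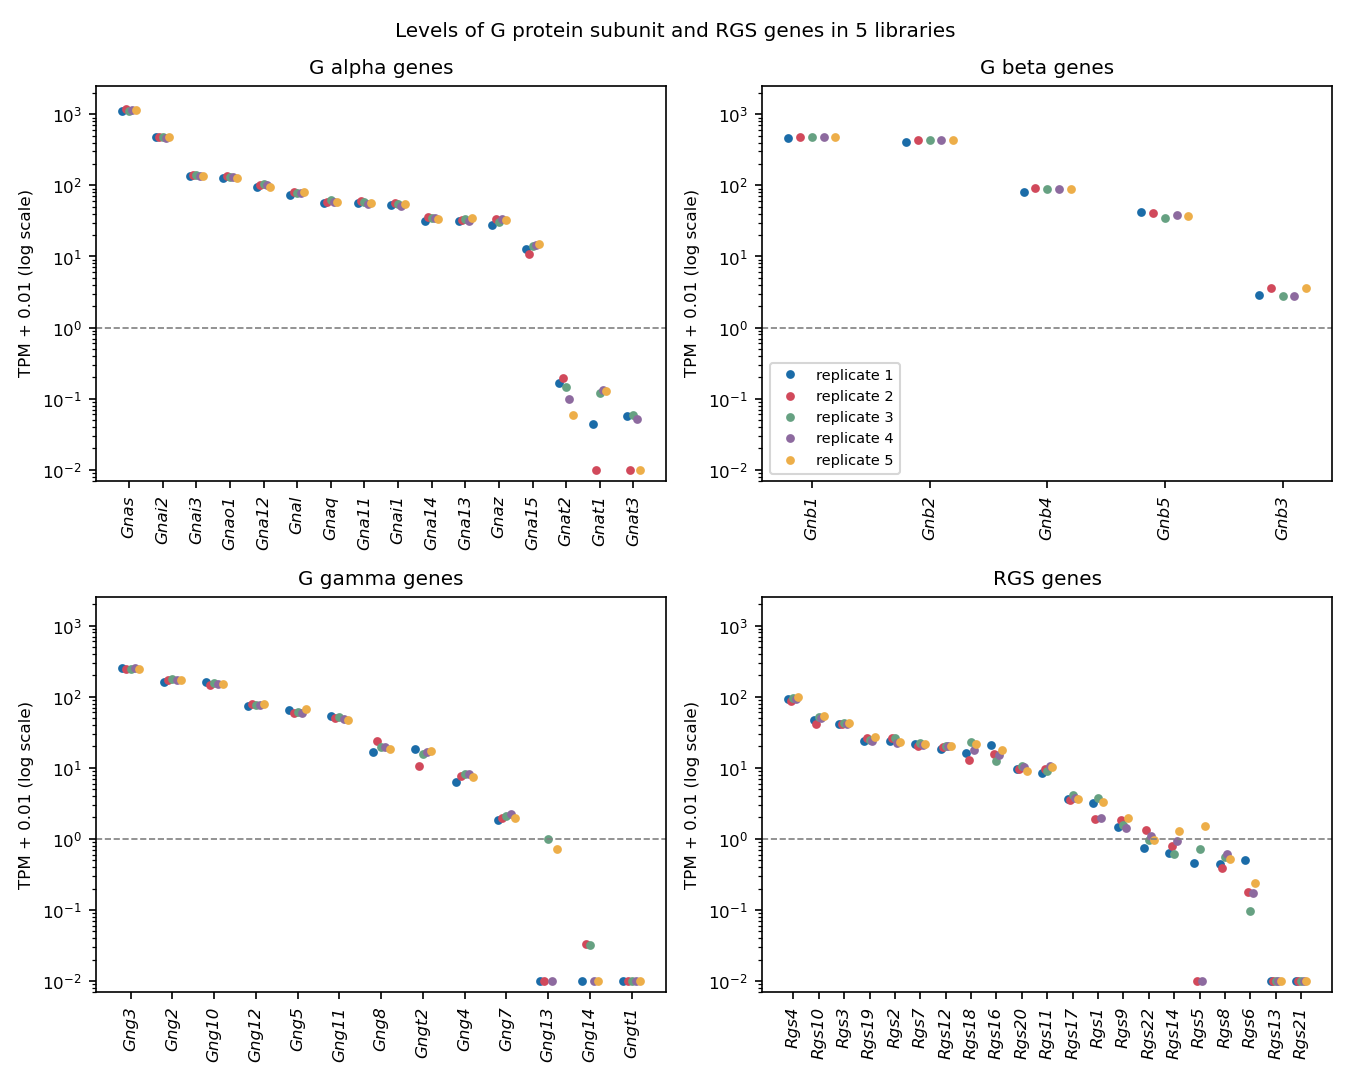
TPM plus 0.01 on a log axis for each of the 55 genes, in panels for G alpha, G beta, G gamma and RGS genes, with 1 point per library coloured by replicate. The dashed line marks 1 TPM. Gnas leads at 1146 TPM, and Gngt1, Rgs13 and Rgs21 lie at the bottom of the axis, listed at 0 in all 5 libraries.

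Gnas, which encodes the stimulatory subunit that activates adenylyl cyclase, was the highest of the G alpha genes. It stood at 1122, 1172, 1119, 1159 and 1157 TPM (mean 1146 ± 24.0). That level placed it within the top 0.397% of all genes, and it held 48.9 ± 0.512% of the summed G alpha TPM. Each of the other 15 G alpha genes was lower than Gnas (limma on the log2 ratio of TPM + 0.1, Benjamini-Hochberg over 33013 genes, highest adjusted p among them 2.36e-08), as were 99.6% of all genes. Gnas was the reference of this class and also its highest gene, so the ranking had already given the direction of these fits. The Salmon records with a gene name covered 75.5% of the Gnas level. Among its 11 named records the one of 1807 bases held 88.7 ± 0.541%, and each of the 4 records of 3780 to 8323 bases held at most 0.00376%.

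Gnal, the olfactory relative of Gnas that also stimulates adenylyl cyclase, stood at 73.1, 81.6, 77.0, 79.4 and 79.5 TPM. The level of Gnas was 14.7-fold that of Gnal (log2 difference 3.87 ± 0.0366). Gnal overlaps Chmp1b on the genome, itself at 82.3 TPM, and the strand setting of the counting is not given in the sources used here, so the level of Gnal is uncertain. Gnas and Gnal together made up 52.2 ± 0.557% of G alpha TPM.

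The Gi/o genes, whose products inhibit adenylyl cyclase and release the beta-gamma dimers that act on channels, followed with 35.2 ± 0.396% of G alpha TPM. Gnai2 led them at 473, 473, 472, 461 and 482 TPM (mean 472 ± 7.55), 20.2% of the class. Gnai3 stood at 137, 140, 138, 136 and 136 TPM, and Gnao1, the Go subunit abundant in neurons, at 127, 134, 131, 129 and 128 TPM. The ranges of these 3 genes did not overlap: Gnai2 was 3.44-fold above Gnai3 and 3.64-fold above Gnao1 in 5 of 5 libraries. Gnai1 stood at 52.8, 56.0, 54.7, 50.7 and 54.0 TPM, 8.79-fold below Gnai2. Gnaz, which encodes a Gi relative that pertussis toxin does not modify, was lower at 27.3, 33.2, 30.4, 33.2 and 32.5 TPM, 4.14-fold below Gnao1. Named records covered 33.0% of the Gnao1 level, 30.3% of Gnai1 and 25% of Gnaz, so these 3 levels rest on the authors' gene table. On sums of named records, the gap between Gnai2 and Gnao1 widened from 1.86 to 3.46 on the log2 scale, and that between Gnai2 and Gnai1 from 3.14 to 4.85.

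Transducin and gustducin genes, the Gi relatives of photoreceptors and taste cells, were not detected. Gnat1 (rod) reached at most 0.121 TPM, Gnat2 (cone) 0.184 and Gnat3 (taste) 0.0492. Gnat2 overlaps Gnai3, whose level was 137 TPM, and is uncertain for that reason.

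The Gq genes, whose products activate phospholipase C beta, held 6.97% of G alpha TPM, and the G12 genes, which act on exchange factors of small GTPases, held 5.65%. Gnaq stood at 57.4, 58.5, 61.4, 58.2 and 58.8 TPM and Gna11 at 56.0, 60.1, 58.6, 54.0 and 56.8 TPM. Their ranges overlapped: the log2 difference was 0.04 ± 0.0544, Gnaq was higher in 4 of 5 libraries, and the exact two-sided sign-flip test gave p = 0.1875. In CPM, reads scaled to the library total and not divided by length, Gnaq was above Gna11 by 2.92 on the log2 scale. Gna14 was at 34.1 ± 1.51 TPM, and Gna15, a Gq relative known mainly from blood cells, at 13.4 ± 1.67 TPM. Gna12 stood at 95.7, 101, 104, 101 and 95.8 TPM and Gna13 at 32.0, 32.1, 33.4, 32.0 and 34.6 TPM, so that Gna12 was 3.03-fold higher. In the order of levels, Gna11 and Gnai1, Gna14 and Gna13, and Gna13 and Gnaz also overlapped.

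Gnb1 and Gnb2 made up most of the G beta RNA, with 46.0 ± 0.458% and 41.5 ± 0.547% of the class. Gnb1 stood at 462.7, 481, 478, 477 and 477 TPM and Gnb2 at 404, 439, 428, 428 and 441 TPM. Gnb1 was higher in each library, although by only 1.11-fold (limma adjusted p = 0.000333). For both genes replicate 1 was the lowest. The G beta genes Gnb2 to Gnb5 were all lower than Gnb1 (4 of 4), as were 99.0% of all genes. Gnb1 was the reference and the highest of its class, so the ranking had already given this direction. The TPM of Gnb1 was divided over 7 named records, and the highest per length, of 1544 bases, held 33.3 ± 1.85% of it. Gnb2 had 4 named records, of which the 1670-base record held 92.0 ± 0.679% of the TPM.

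The other G beta genes were lower. Gnb4 stood at 81.8, 90.9, 89.3, 88.1 and 88.1 TPM, 5.42-fold below Gnb1. Named records covered 78.3% of the Gnb4 level, and on their sums the log2 gap to Gnb1 widened from 2.44 to 2.79. Gnb5, the divergent beta subunit that pairs with RGS proteins of the R7 group, stood at 41.8, 40.3, 34.4, 38.7 and 36.6 TPM. Gnb3, known as the beta subunit of cones, stood at 2.87, 3.61, 2.79, 2.77 and 3.59 TPM, 11.98-fold below Gnb5. All neighbours in the order of G beta levels were separated, with no overlap between their ranges.

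Gng3, a gamma subunit known mainly from neurons, was the highest G gamma gene at 251, 241, 247, 252 and 249 TPM (mean 248 ± 4.32, 30.7% of the class). Gng2 followed at 164, 172, 175, 171 and 174 TPM and Gng10 at 162, 148, 154, 153 and 150 TPM. The 3 genes together had levels that did not overlap with each other or with any lower G gamma gene. Per length, Gng3 was 1.45-fold above Gng2 in 5 of 5 libraries. In CPM Gng2 was above Gng3 by 1.41 on the log2 scale. Gng3 overlaps Bscl2 (88.2 TPM) on the genome and is uncertain because strand use is unknown.

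Gng5, a gamma subunit found in most tissues, was the reference for this class and stood at 65.3, 59.5, 61.1, 59.1 and 66.4 TPM. Against it 4 genes (Gng2, Gng3, Gng10 and Gng12) were higher and 8 were lower by limma, beside 7.81% of all genes higher and 90.8% lower. Gng12 stood at 73.5, 79.3, 76.3, 76.2 and 78.1 TPM, 1.23-fold above Gng5 (limma adjusted p = 0.00101), but its named records covered only 46.5% of that level. On sums of named records Gng12 was below Gng5 by 0.80 on the log2 scale. Gng11 stood at 53.6, 50.3, 51.5, 48.6 and 47.1 TPM, 1.24-fold below Gng5 (limma adjusted p = 0.00108) and 3.05-fold below Gng10. In CPM Gng11 was above Gng5 by 0.14 on the log2 scale. The order of Gng5, Gng11 and Gng12 therefore depended on the scale and the source. Gng5 itself overlaps Rpf1 (35.3 TPM).

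Lower G gamma genes were Gng8 at 19.6 ± 2.48 TPM, Gngt2 at 15.7 ± 3.13, Gng4 at 6.39, 7.73, 8.20, 8.27 and 7.44 TPM, and Gng7 at 1.86, 1.97, 2.07, 2.24 and 1.99 TPM. Gng3 was 32.3-fold above Gng4, and Gng2 was 80.8-fold above Gng7. Gng8, a subunit known from olfactory and vomeronasal neurons, and Gngt2, the cone transducin gamma, had overlapping ranges. Named records held 0.571% of the Gng4 level, so that gene was detected by the authors' table alone. Gng13, known from taste and olfactory cells, reached at most 1.0 TPM, with 5 estimated reads over all libraries, and Gng14 at most 0.0227. Gng13 overlaps Chtf18 (3.3 TPM) on the genome and is uncertain for that reason too. Gngt1, the rod transducin gamma, had 0 reads, which allows up to 0.158 TPM (3 reads over the 5 libraries).

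**Figure D2:**
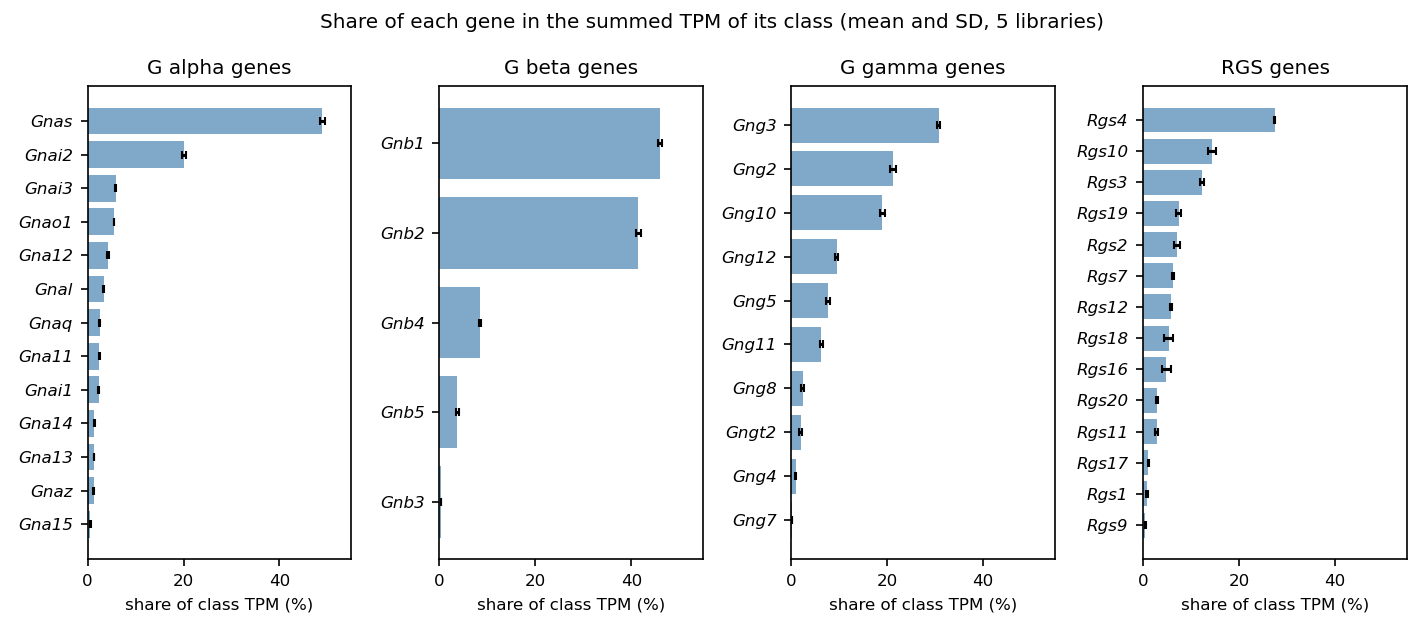
Share (%) of each gene in the summed TPM of its class, as bars of the mean with the SD over 5 libraries, in panels for G alpha, G beta, G gamma and RGS genes. Undetected genes are not drawn. Gnas, Gnb1 and Gnb2 hold 48.9%, 46.0% and 41.5% of their classes, and Rgs4 holds 27.4%.

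The RGS genes had a flatter order, with Rgs4 at the head. Rgs4, which acts on Gi/o and Gq subunits and is abundant in neurons, stood at 91.5, 88.3, 96.7, 91.4 and 98.6 TPM (mean 93.3 ± 4.25). Its share of RGS TPM was 27.4 ± 0.0753%, between 27.3% and 27.5% in the 5 libraries, so its level moved with the class sum, of which it is a part. Rgs10 followed at 47.6, 41.2, 52.1, 49.5 and 53.9 TPM and Rgs3 at 41.5, 41.7, 43.2, 41.1 and 42.6 TPM, and these ranges overlapped. Each of the other 20 RGS genes was below Rgs4 (limma, highest adjusted p among them 4.08e-05), as were 93.9% of all genes. Rgs4 was the reference and the highest of its class, so the ranking had already given this direction. Rgs13 and Rgs21 were listed at 0 in all 5 libraries, so their fits reflect the spread of Rgs4 alone.

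By subfamily, the R4 group of small RGS proteins held 58.3 ± 0.730% of RGS TPM, the R12 group 20.4 ± 0.843%, the RZ group 11.4 ± 0.490% and the R7 group 9.65 ± 0.300%. In the R4 group, Rgs2, which prefers Gq subunits, stood at 23.8, 26.0, 25.9, 22.6 and 23.2 TPM, 1.73-fold below Rgs3 (-0.79 on the log2 scale, and -3.68 in CPM). Rgs16 stood at 21.2, 15.7, 12.5, 15.3 and 17.8 TPM, with replicate 1 the highest. Rgs18 was at 18.3 ± 4.11 and Rgs1 at 2.81 ± 0.821 TPM, and Rgs18 was 6.41-fold above Rgs1 in the ratio of TPM + 0.1. Rgs8, close in sequence to Rgs4 and known from Purkinje cells, stood at 0.439, 0.385, 0.546, 0.603 and 0.513 TPM, 158-fold below Rgs4 in the same ratio.

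Rgs5, a marker of pericytes, stood at 0.442, 0, 0.707, 0 and 1.498 TPM, with 11 estimated reads over all libraries. It was below Rgs16 in 5 of 5 libraries, by 5.46 on the log2 scale with a pseudocount of 0.1 and by 3.59 with 1. The contractile mural markers Tagln and Acta2 were at 150 ± 33.2 and 110 ± 33.0 TPM, and Pdgfrb, shared by pericytes and other mural cells, was at 36.9 ± 2.38 TPM. Of the 8 mural markers, Rgs5 and Kcnj8 (0.517 ± 0.179 TPM) were not detected. Rgs13, known from B cells and mast cells, was listed at 0, and none of its records could be named. Rgs21, known from taste cells, had 0 reads, which allows up to 0.174 TPM. The lymphocyte markers Cd3d, Cd3e and Nkg7 were likewise at 0 in all libraries.

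The R7 group is made of Rgs6, Rgs7, Rgs9 and Rgs11, each of which carries a domain like a G gamma subunit and is stable only when bound to the Gnb5 protein. Rgs7 led at 21.8, 20.2, 22.2, 21.1 and 21.5 TPM. Rgs11 stood at 8.31, 9.60, 8.89, 10.7 and 10.4 TPM and Rgs9, known from photoreceptors and striatum, at 1.47, 1.84, 1.54, 1.41 and 1.98 TPM, 5.55-fold below Rgs11. Rgs6 was not detected, at 0.501, 0.169, 0.0856, 0.165 and 0.229 TPM. Its level is uncertain, because Rgs6 overlaps LOC100912402 (1.42 TPM) on the genome and named records covered 51.6% of it. The 4 genes summed to 32.8 ± 0.938 TPM, against 38.4 ± 2.90 TPM for Gnb5 and 994 ± 25.2 TPM for Gnb1 to Gnb4 together. The R7 sum was between 31.8 and 34.1 TPM and Gnb5 between 34.4 and 41.8, so Gnb5 was the higher in each library. Of the other R7 partners, the membrane anchor Rgs7bp was at 16.7 ± 1.30 and the orphan receptor Gpr158 at 10.9 ± 0.265 TPM, while Rgs9bp (0.300 ± 0.267) and Gpr179 (0.0195 ± 0.0155), both known from the retina, were not detected.

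In the RZ group, Rgs19 stood at 24.2, 26.1, 24.5, 23.7 and 27.3 TPM, Rgs20 at 9.54, 9.75, 10.7, 10.2 and 9.02 TPM and Rgs17 at 3.66, 3.56, 4.13, 3.75 and 3.66 TPM. Rgs17 was 2.58-fold below Rgs20, whose named records covered 61.9% of its level and which overlaps Atp6v1h (83.1 TPM). In the R12 group, Rgs10 was 1.94-fold above Rgs19 per length, but below it by 0.17 on the log2 scale in CPM. Rgs12, which also binds inactive alpha subunits through a GoLoco motif, stood at 18.1, 19.6, 20.1, 19.97 and 20.6 TPM. Rgs14, a close relative of Rgs12, stood at 0.626, 0.787, 0.613, 0.910 and 1.27 TPM, 21.6-fold lower. Named records covered 76.1% of the Rgs12 level, and on their sums this log2 gap narrowed from 4.43 to 4.04. Rgs22, outside these subfamilies, had a mean of 1.01 TPM but reached 1 TPM in replicates 2 and 4 alone, and so was not called detected. The range of Rgs19 overlapped that of Rgs2, Rgs7 that of Rgs12, Rgs12 that of Rgs18, and Rgs18 that of Rgs16. Lower in the order, Rgs20 overlapped Rgs11, Rgs17 overlapped Rgs1, and Rgs1 overlapped Rgs9.

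Of the 24 pairs compared, 23 had the same gene higher in all 5 libraries, the exception being Gnaq and Gna11. The pairs were chosen with earlier results of these data known. The share among pairs of other genes was not measured, so this count does not set these genes apart. With 5 libraries the exact two-sided sign-flip test cannot go below p = 0.063 (0.0652 adjusted over the pairs), which those 23 pairs reached, so no pair could pass 0.05 in that test.

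Genes that act beside these were present in most of the lists. RGS homology domains occur in kinases, exchange factors of small GTPases and sorting nexins, among others. Of 15 listed genes with such a domain, which included Axin1, Axin2 and Akap10, 14 were detected. The receptor kinase Grk2 (52.4 ± 2.25 TPM) and the exchange factor Arhgef1 (50.9 ± 2.02) were highest. Grk3 (2.05 ± 0.264) and Grk1 (0.00702 ± 0.0157) were lowest. Of 4 arrestins, Arrb1 (125 ± 2.48 TPM) and Arrb2 (32.5 ± 4.25) were detected and the retinal arrestins Arr3 (0.0888 ± 0.0892) and Sag (0.0157 ± 0.0156) were not.

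Chaperones and receptor-independent activators of G proteins were detected in 10 of 11 cases. Ric8a, a chaperone of alpha subunits, was at 98.5 ± 2.15 TPM and Pdcl, which helps beta-gamma dimers to assemble, at 33.8 ± 1.13 TPM. Gprin3 was at 1.23 ± 0.152 TPM and Pcp2 was listed at 0. Of 13 listed effectors of G proteins, 11 were detected. The phospholipase Plcb3 (55.1 ± 1.86 TPM) and the Rac exchange factor Prex1 (41.1 ± 2.20) were highest. The potassium channel genes Kcnj5 (0.859 ± 0.228) and Kcnj6 (0.494 ± 0.0975) were lowest, whereas the related Kcnj3 and Kcnj9 were at 12.3 ± 0.744 and 6.15 ± 0.270 TPM.

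Levels varied little between libraries. The median coefficient of variation (CV, SD over mean) of the 42 detected genes was 4.66%, beside 5.59% for all 13635 detected genes. Among genes with a mean TPM of at least 10, it was 4.06% (34 genes) and 4.49%. Among the 42 detected genes the lowest CV was that of Gnai3, 1.19%, and the highest that of Rgs1, 29.2%. Gng3 had a CV of 1.74%, equal to that expected from counting its reads alone. The edgeR biological CV, on estimated reads of genes whose named records matched the table, had a median of 0.0451 over 30 detected members and 0.0511 over 8871 genes. Its highest values among these members were 0.146 for Rgs18, 0.126 for Rgs16 and 0.125 for Gngt2. Rgs1 was not among them, because its named records did not match the table. Rgs16 was highest in replicate 1, as was the summed TPM of the mural markers (387, 366, 295, 297 and 212 TPM). The sum was lowest in replicate 5, where Rgs16 had its next highest level (17.8 TPM). Tagln and Acta2 carried most of that sum. Of the 6 detected mural markers, 4 (Acta2, Tagln, Myh11 and Cnn1) were highest in replicate 1, Des was highest in replicate 2, and Pdgfrb was lowest in replicate 1. The part of mural RNA in the spread of Rgs16 was not tested.

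**Figure D3:**
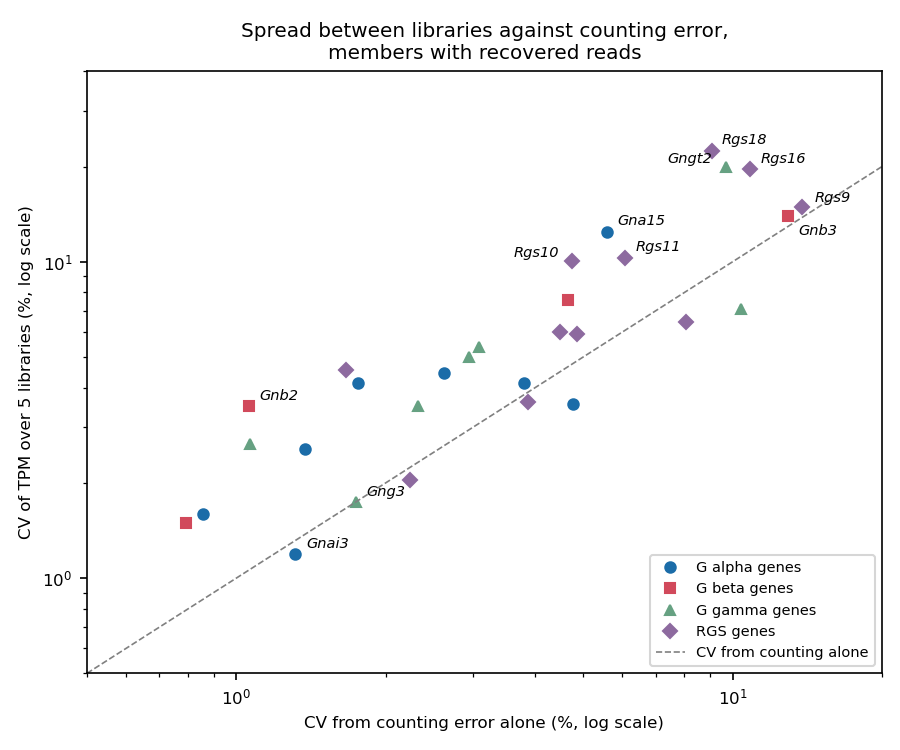
CV of TPM over 5 libraries (%) against the CV that counting error alone would give (%), both on log axes, for the detected genes with recovered reads, with marker shapes for the 4 classes. The dashed line marks equal values; Rgs18 (22.5%), Gngt2 (19.9%) and Rgs16 (19.6%) have the highest CVs drawn, and Gng3 and Gnai3 lie on or under the line.

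Libraries differed in where these genes were lowest. In replicate 1, 17 of the 42 detected genes (40.5%) had their lowest level, beside 24.4% of all detected genes, and 5 had their highest, beside 22.3%. In replicate 2, 10 genes had their lowest level (23.8%), beside 16.9% of all detected genes, and more, 14 (33.3%), had their highest, beside 27.3%.

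A set of 5 genes, several of them known from blood and immune cells, was low in replicate 2. Rgs18, an RGS gene of platelets and myeloid cells, stood at 16.3, 12.8, 23.2, 17.8 and 21.4 TPM. Gngt2 stood at 18.5, 10.4, 15.5, 16.8 and 17.2 TPM. Rgs1, known from leukocytes, stood at 3.14, 1.89, 3.73, 1.99 and 3.30 TPM. In each of these genes replicate 2 was the lowest library, and for Rgs1 replicate 4 was nearly as low. Gna15 stood at 12.6, 10.9, 14.1, 14.4 and 15.1 TPM, again with replicate 2 the lowest. For Rgs10, known from microglia and macrophages, the corresponding value of 41.2 TPM lay below the other libraries, which were between 47.6 and 53.9.

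Relative to the mean of the other 4 libraries, replicate 2 held 61.4% of the Gngt2 level, 62.4% of Rgs1, 65.2% of Rgs18, 77.7% of Gna15 and 81.2% of Rgs10. The next gene, Rgs7, was at 93.2%. Under 85%, a bound set after these values were seen, lay 5 of the 42 detected genes (11.9%) and 6.56% of all detected genes. The group was therefore chosen for its values and has no test. All 10 macrophage markers were also lowest in replicate 2, at 63.4% to 78.0% of the other libraries (median 68.1%), with summed levels of 1920, 1472, 2188, 2163 and 2327 TPM. Of the 6 satellite glia markers, 3 were lowest in replicate 2 and 1 was under 85% (Apoe, a lipid carrier that macrophages also make, at 83.1%), and their range was 83.1% to 115%. No marker was under 85% among 10 of neurons, 10 of Schwann cells, 6 of fibroblasts, 6 of mural cells and 3 of endothelium that were detected. The part of macrophage or satellite glia RNA in the levels of the 5 genes was not tested. Without replicate 2, the CV fell from 10.1% to 5.49% for Rgs10, from 19.9% to 7.30% for Gngt2 and from 12.5% to 7.50% for Gna15, and it was 16.1% for Rgs18 and 24.4% for Rgs1. Named records covered 19.1% of the Rgs1 level, so its values rest on the authors' gene table.

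**Figure D4:**
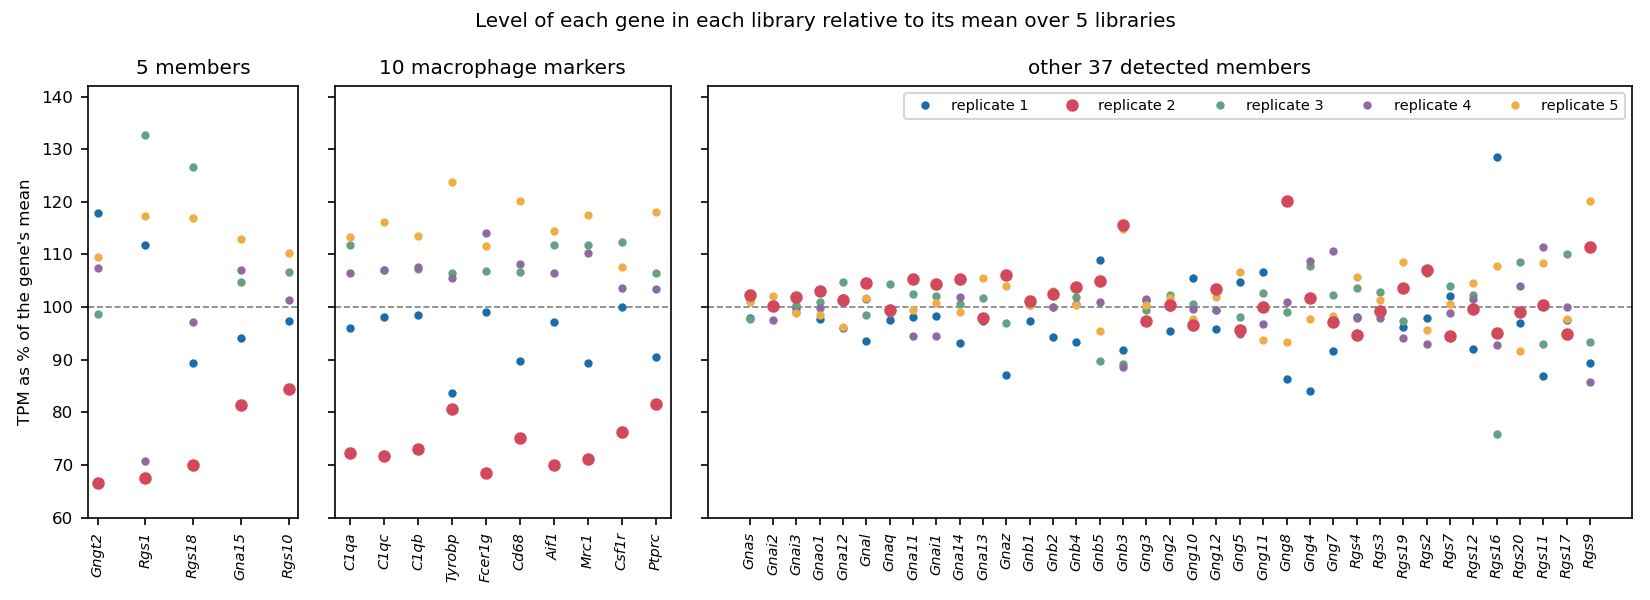
TPM in each library as a percentage of the gene's mean over 5 libraries, for Gngt2, Rgs1, Rgs18, Gna15 and Rgs10 (left), 10 macrophage markers (middle) and the other 37 detected genes (right), coloured by replicate with larger points for replicate 2. Replicate 2 is the lowest point of all 5 genes and all 10 markers; in the right panel its points lie on either side of 100%.

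Promoters of 44 of the 55 genes were found by symbol in a RefSeq table of the GRCr8 assembly, with 46 promoters in all; 11 genes had none. The windows are the 250 bases before the annotated start. They are shown for Rgs4, the highest RGS gene, and for the genes low together in replicate 2 that had an entry (Rgs10, Rgs18, Rgs1 and Gna15). Each is written 5′ to 3′ on the strand of its gene, and capitals mark a TATA box core (TATAAA) or a GC box core (GGGCGG).
Rgs4, chr13:84475885-84476134, minus strand: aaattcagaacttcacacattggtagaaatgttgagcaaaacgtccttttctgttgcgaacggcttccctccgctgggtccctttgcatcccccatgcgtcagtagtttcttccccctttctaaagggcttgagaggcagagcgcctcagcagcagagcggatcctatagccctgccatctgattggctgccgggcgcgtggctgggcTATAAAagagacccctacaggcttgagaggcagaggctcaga
Rgs10, chr1:192418078-192418327, minus strand: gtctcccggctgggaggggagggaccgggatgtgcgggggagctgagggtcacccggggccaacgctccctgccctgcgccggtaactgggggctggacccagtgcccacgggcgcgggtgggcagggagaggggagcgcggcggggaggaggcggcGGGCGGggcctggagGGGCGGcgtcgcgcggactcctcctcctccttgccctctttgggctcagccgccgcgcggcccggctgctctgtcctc
Rgs18, chr13:59066343-59066592, minus strand: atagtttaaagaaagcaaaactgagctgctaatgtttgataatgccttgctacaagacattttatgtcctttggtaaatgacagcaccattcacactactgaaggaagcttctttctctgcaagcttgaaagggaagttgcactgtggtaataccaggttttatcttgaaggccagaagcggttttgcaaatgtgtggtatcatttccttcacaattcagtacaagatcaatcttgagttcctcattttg
Rgs1, chr13:58573188-58573437, minus strand: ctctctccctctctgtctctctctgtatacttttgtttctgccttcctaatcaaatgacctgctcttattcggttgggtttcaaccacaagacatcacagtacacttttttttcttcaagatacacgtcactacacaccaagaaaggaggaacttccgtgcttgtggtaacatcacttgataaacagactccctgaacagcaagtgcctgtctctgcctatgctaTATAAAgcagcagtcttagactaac
Gna15, chr7:8835374-8835623, plus strand: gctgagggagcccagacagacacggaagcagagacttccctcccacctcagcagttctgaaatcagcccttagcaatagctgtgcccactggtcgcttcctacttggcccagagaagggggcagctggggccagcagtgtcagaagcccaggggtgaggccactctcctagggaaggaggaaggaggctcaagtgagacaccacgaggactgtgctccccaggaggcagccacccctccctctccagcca

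These windows differed in composition. The GC content was 77.6% for Rgs10, 62.0% for Gna15, 54.4% for Rgs4, 42.8% for Rgs1 and 38.4% for Rgs18, beside a median of 61.2% over the 46 windows and 51.2% over 33469 windows of all genes. TATAAA was found at position -42 of Rgs4 and -25 of Rgs1, counted back from the start to the first base of the motif. GGGCGG was found at positions -93 and -78 of Rgs10. Searched on both strands, TATAAA was in 13.0% of the 46 windows and 12.9% of all windows, and GGGCGG in 52.2% and 30.5%. The cAMP response element TGACGTCA was in 1 of the 46 windows (Gnao1) and in 1.59% of all windows. The motifs searched do not overlap each other in sequence, and a match is a run of letters in these windows and not a measured binding site. The genes low in replicate 2 shared neither motif across all 4 windows.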

How the data were processed

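Poly-A RNA of 5 samples of 1 group was measured. The authors deposited a combined table of TPM for 33014 genes, and quantification files that hold, per the file headers, TPM, effective length and estimated counts of reads for 98811 transcripts per library. Per the submitters' processing notes, Trim Galore 0.6.6, cutadapt 2.8 and Salmon 1.5.1 were used with the build mRatBN7.2; the sources used here give neither the strand setting nor the transcript set. The model divides reads that related genes share, so levels of close relatives are less certain.

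Here, a RefSeq table of GRCr8 gave gene names to 67330 transcripts (68.1%). For 19270 genes (37 of the 55), the TPM of named transcripts differed from the gene TPM by at most 10% in every library; their reads, called recovered, held 67.1% to 67.4% of each library. A TPM of 1 was backed by 13.3 to 17.4 reads per kb of effective length, and floors of 3 reads cover counting error only.

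With 1 group, genes were compared within libraries. limma 3.58.1 (intercept only, empirical Bayes, two-sided) tested log2((TPM + 0.1)/(reference + 0.1)) over all genes, with Benjamini-Hochberg adjustment and a threshold of 0.05. Ratios on this scale are understated for low genes. Pairs had an exact sign-flip test. Spread was estimated with edgeR 4.0.16 (TMM, filterByExpr, robust dispersions chosen on simulated data) on the estimated counts the authors deposited, rounded to whole numbers. The fits were tested on simulated data. R 4.3.3 and Python 3.11.15 were used.

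Values per library are given for the 3 highest genes of each class, the genes of the pairs and the 3 detected genes of highest dispersion, and means for the 2 highest and 2 lowest genes of each pathway list; further values were chosen after they were seen. The genes, lists and pairs were chosen with earlier results of these data known. Alternatives covered detection thresholds, pseudocounts, a filter on low values, transcript sums, CPM of recovered reads, RLE scaling and leaving out each replicate. The result of 1 marker list is not reported here.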

Additional observations from a re-analysis of the deposited data

Results flagged for a closer look

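The level of Gnb1 in replicate 1, 462.7 TPM, lay apart from the other 4 libraries, which were between 476.6 and 480.8 TPM. Its gap to the nearest library was 0.771 of the whole range, above Dixon's 95% critical value of 0.71 for 5 samples. Of 42 detected genes tested, 1 met this rule, and chance gives about 1 in 20.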

How the results depend on the processing

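The number of detected genes was 42 in the main analysis and ranged from 39 to 44 over the alternatives; sums of named transcripts gave 40. Of 101 recomputed counts and medians of spread, 99 stayed within the bounds set for a change and 2 moved. In CPM of recovered reads, which are not divided by length and leave out genes that were not recovered, 4 genes were lower than Gng5 and 13 lower than Rgs4. Directions turned for Gng11 against Gng5 (0.14 on the log2 scale, CPM), Gng12 against Gng5 (-0.80, transcript sums, and 0.80 for the pair of Gng5 and Gng12), Gng2 against Gng3 (1.41, CPM) and Rgs10 against Rgs19 (-0.17, CPM). CPM changes the length scale and transcript sums leave out unnamed records; other causes were not tested. Of the other recomputed values, 473 of the fits against a reference gene, 172 of the pairs and 36 of the shares kept their call or moved by less than their spread, and 28 pairs and 6 shares moved with no change of direction. For the pairs that follow, the fold difference changed by over 1.5 times, and the log2 differences after the change are given. In CPM they were 2.92 for Gnaq and Gna11, 0.84 for Gnb1 and Gnb2 and 2.88 for Gnb5 and Gnb3. Also in CPM, they were 0.68 for Gng10 and Gng11 and -3.68 for Rgs2 and Rgs3. On transcript sums they were -3.46 for Gnao1 and Gnai2, 4.85 for Gnai2 and Gnai1, 10.94 for Gng3 and Gng4, -0.69 for Rgs17 and Rgs20, -5.51 for Rgs1 and Rgs18 and 6.83 for Rgs7 and Rgs6. With a pseudocount of 1 they were 5.98 for Rgs4 and Rgs8, 4.19 for Rgs7 and Rgs6, 3.50 for Rgs12 and Rgs14 and -3.59 for Rgs5 and Rgs16, the last of which was -6.89 with a pseudocount of 0.01 and -4.35 in CPM, both within its SD. Gnas was not recovered and has no CPM value. Leaving out each replicate in turn left 42 genes detected. The CVs without replicate 2 were chosen after seeing the data. Genes under about 1 TPM rest on few reads, and no depth can assign a level to a cell type. No paired analysis was possible because the libraries form 1 group.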
